A study of Mus musculus with 8 samples.

Results

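Astrocytes keep the fluid around neurons in balance, and this account follows 9 genes that carry out that work in the mouse hippocampus. They were chosen by symbol: Gja1 and Gjb6 (the connexins that build astrocyte gap junctions), Aqp4 (the water channel), Slc1a2 and Slc1a3 (the glutamate transporters GLT-1 and GLAST), Glul (glutamine synthetase), Slc6a11 (the GABA transporter GAT-3), Slc4a4 (a sodium bicarbonate cotransporter) and Slc7a10 (the serine and alanine exchanger Asc-1). All 9 were found among the 55487 gene identifiers of both hippocampal libraries, each under 1 identifier. As background, gap junctions join astrocytes into a network through which potassium and metabolites spread. Glutamate that neurons release is taken up by the glutamate transporters and turned into glutamine by glutamine synthetase. Radial glia-like neural stem cells of the dentate gyrus are relatives of astrocytes and express part of the same set, including Slc1a3.

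The study used single-cell RNA sequencing to ask how the hippocampal niche changes after regulatory T cells are depleted. Live hippocampal cells sorted as CD45- Thy1- came from Foxp3-DTR- mice (DTRneg) or Foxp3-DTR+ mice (DTRpos), where Foxp3-expressing cells carry the diphtheria toxin receptor. Both genotypes received diphtheria toxin, and the controls were littermates. The labels give no age for the mice. Each genotype is 1 library of 2 pooled mice, so no test between genotypes was possible and no difference between them has a replicate check. The DTRneg library held 53.5 M unique molecular identifiers (UMIs, each counting 1 captured transcript) over 8220 barcodes, and the DTRpos library 35.8 M over 6548. After filtering, 6863 and 5691 cells were kept, with medians of 6003 and 4509 UMIs, and 15 of the kept barcodes occurred in both libraries.

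Cells were placed in classes by marker UMIs, with none of the 9 genes among the markers, and the classes are called "like" because no annotation of the authors was used. The astrocyte-lineage class held 1044 cells in DTRneg and 1182 in DTRpos, and all 8 astrocyte markers were detected in each of its subclasses in both libraries. It was split by Riiad1, a marker used here for neural stem cell-like cells, and then by Agt, the angiotensinogen gene. Agt-positive astrocyte-like cells numbered 461 in DTRneg and 533 in DTRpos, Agt-negative ones 503 and 565, and neural stem cell-like cells 80 and 84. At least 2 Agt UMIs were present in 273 and 312 of the Agt-positive cells. A missed Agt transcript would place a cell among the Agt-negative ones. The classes differed in depth: the median cell held 4297 and 3365 UMIs among Agt-positive cells, 3025 and 2809 among Agt-negative cells, and 4418 and 3687.5 among neural stem cell-like cells. At the edge of the class, 24 and 36 of the astrocyte-lineage cells had exactly 3 astrocyte markers, the minimum, while 751 and 727 cells in all had 2. The labels describe the samples as neurons and glia, but 2 and 3 cells met the neuron rule.

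For 8 of the 9 genes, most UMIs lay in the astrocyte lineage. Of all Gja1 UMIs in kept cells, 93.9% in DTRneg and 97.2% in DTRpos lay in astrocyte-lineage cells. The share was 93.2% and 96.0% for Gjb6, 93.6% and 97.0% for Aqp4, 91.7% and 93.9% for Slc4a4, and 88.8% and 91.5% for Slc6a11. Slc7a10 followed with 87.4% and 89.5%, Slc1a2 with 82.5% and 86.1%, and Slc1a3 with 75.4% and 82.4%. Glul was the exception. Astrocyte-lineage cells held 17.7% and 24.2% of its UMIs, and mature oligodendrocyte-like cells, which made up 54.0% of kept cells in DTRneg and 46.1% in DTRpos, held 77.7% and 71.9%.

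**Figure D1:**
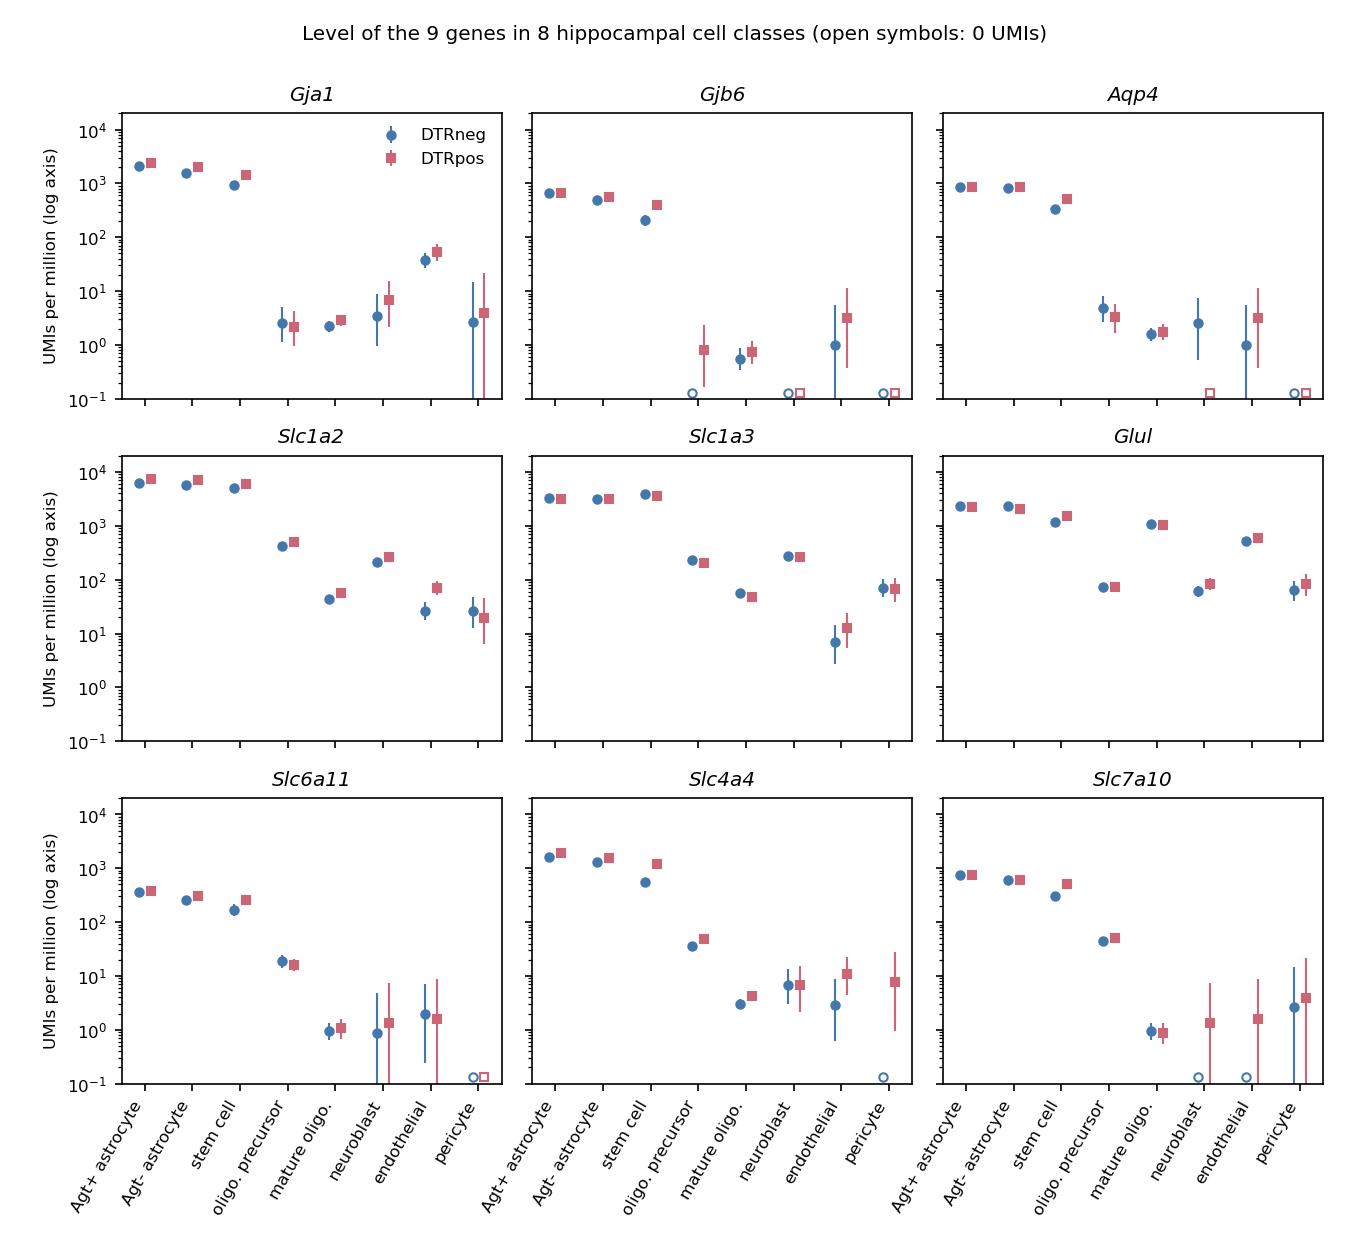
CPM on a log axis for each gene (panels) in 8 cell classes with at least 50 cells in both libraries, with 1 point per library and bars for exact 95% Poisson counting intervals. The 3 astrocyte-lineage classes are at the left of every panel and lie above the other classes for all 9 genes, with mature oligodendrocyte-like and endothelial-like cells next for Glul.

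The connexin genes were high in the astrocyte lineage. Gja1 (chr10:56377330-56402513, mm10) stood at 2074 CPM (the gene's UMIs scaled to a fixed total for the class) in DTRneg and 2351 in DTRpos in Agt-positive cells, at 1578 and 2033 in Agt-negative cells and at 955 and 1436 in neural stem cell-like cells. The next class of at least 50 cells was endothelial-like cells at 37.3 and 52.8, and oligodendrocyte precursor-like cells were at 2.57 and 2.18. Gjb6 (chr14:57123303-57133611) stood at 654 and 657, 492 and 554, and 208 and 394 in the same 3 lineage classes. No Gjb6 UMI was read in pericyte-like or neuroblast-like cells, and a count of 0 allows up to 7.90 (DTRneg) and 11.7 CPM (DTRpos) in the former and 2.58 and 4.02 in the latter. For both connexins the order was Agt-positive, Agt-negative, neural stem cell-like, and these 3 classes did not overlap. Slc4a4 and Slc7a10 showed the same order without overlap. How many of all genes did so was not counted.

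Aqp4, which encodes the water channel of astrocyte endfeet, stood at 850 and 857 CPM in Agt-positive cells and 834 and 856 in Agt-negative cells, which overlap. Neural stem cell-like cells had 340 in DTRneg and 509 in DTRpos, below both astrocyte-like classes. All other classes of at least 50 cells were under 5 CPM.

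The glutamate transporters reached beyond the astrocyte lineage. Slc1a2 (chr2:102658659-102790784) stood at 6316 and 7490 CPM in Agt-positive cells, 5844 and 7054 in Agt-negative cells and 5055 and 6030 in neural stem cell-like cells, with neighbouring ranges that overlap. It was at 426 and 500.5 in oligodendrocyte precursor-like cells and 218 and 266 in neuroblast-like cells. Slc1a3 (chr15:8634124-8710764) was the 1 gene of the 9 whose highest level lay in neural stem cell-like cells, at 3925 in DTRneg and 3554 in DTRpos. It was at 3277 and 3213 in Agt-positive cells and 3119 and 3101 in Agt-negative cells. Neuroblast-like cells followed with 279 and 258 and oligodendrocyte precursor-like cells with 229 and 205.

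Glul (chr1:153899944-153909723) stood at 2303 and 2210 CPM in Agt-positive cells, 2328 and 2077 in Agt-negative cells and 1183 and 1512 in neural stem cell-like cells. Mature oligodendrocyte-like cells were at 1098 and 1046 and endothelial-like cells at 521 and 587. A Glul UMI was present in 77.6% and 74.7% of mature oligodendrocyte-like cells once every cell was thinned to 2000 UMIs, against 13.8% and 12.6% of oligodendrocyte precursor-like cells. Both shares come from the same libraries at the same depth, with the mature class well above its precursors in each.

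The other carriers were low outside the lineage. Slc6a11 (chr6:114131241-114249952) stood at 356 and 379 CPM in Agt-positive, 257 and 304 in Agt-negative and 168 and 261 in neural stem cell-like cells, and the latter pair of classes overlap. Slc4a4 (chr5:88886818-89239653) stood at 1638 and 1913, 1305 and 1560, and 560 and 1215 in the same order. Slc7a10 (chr7:35186385-35201114) stood at 748 and 752, 598 and 601, and 308 and 512. Among classes of at least 50 cells in both libraries, oligodendrocyte precursor-like cells came next for all 3 genes, at 18.7 and 16.1 for Slc6a11, 35.7 and 49.4 for Slc4a4 and 44.7 and 50.7 for Slc7a10.

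Some classes with few cells also carried members. The fibroblast-like class (45 cells in DTRneg and 32 in DTRpos) had Slc1a3 at 1106 and 784 CPM, Gjb6 at 350 and 268 and Gja1 at 288 and 387, while Slc6a11 had 0 UMIs. Choroid plexus-like cells (145 and 26 cells) had Slc7a10 at 99.2 and 218 from 61 and 17 UMIs, and Aqp4 had 0 UMIs there.

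Per cell, the set was most complete in Agt-positive cells. After thinning to 2000 UMIs, the median Agt-positive cell showed 8 of the 9 genes in both libraries, the median Agt-negative cell 7, and the median neural stem cell-like cell 5 in DTRneg and 6 in DTRpos. Slc1a2 was present in 98.7% of neural stem cell-like cells in both libraries and Slc1a3 also in 98.7%. Gjb6 was present in 28.0% and 39.7% of them, against 67.8% and 70.9% of Agt-positive cells, and Aqp4 in 38.7% and 43.6% against 74.0% and 77.5%. Thinning left out shallower cells: 38 and 52 Agt-positive, 175 and 201 Agt-negative and 5 and 6 neural stem cell-like cells. Before thinning Gjb6 was present in 48.8% and 53.6% of neural stem cell-like cells and in 83.9% and 82.4% of Agt-positive cells.

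**Figure D2:**
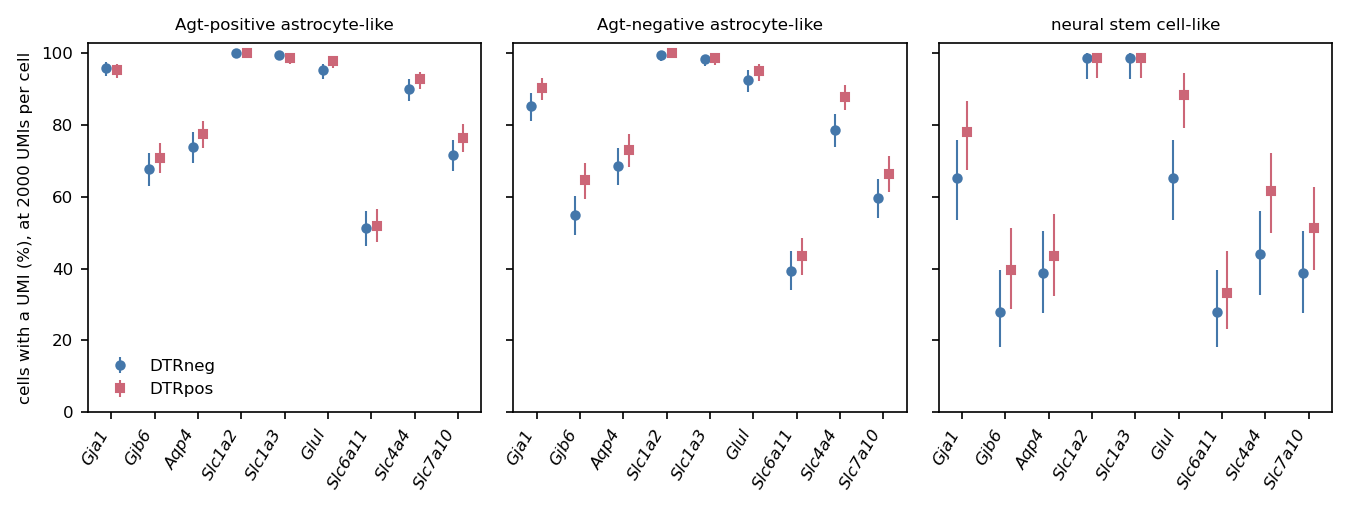
Percentage of cells with at least 1 UMI of each gene after thinning every cell to 2000 UMIs, in the 3 astrocyte-lineage classes, with 1 point per library and exact 95% binomial bars for counting error. Slc1a2 and Slc1a3 sit at 98% or above in all 3 panels, whereas Gjb6, Aqp4, Slc6a11, Slc4a4 and Slc7a10 are lower in neural stem cell-like cells than in Agt-positive cells.

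Sequence just before the start of the genes was compared because the 2 connexin genes and the 2 glutamate transporter genes are pairs of related genes whose levels differ across the lineage. RefSeq promoters (GRCm38.p6) of 8 of the 9 genes were searched, with Aqp4 left out, and the 250 bases before each start were used. The 4 sequences of these pairs follow, read 5′ to 3′ on the gene's own strand, with matches to the searched motifs in capitals. They lie at chr10:56377050-56377299 (Gja1, plus strand), chr14:57133612-57133861 (Gjb6, minus strand), chr2:102706188-102706437 (Slc1a2, plus strand, a start inside the gene's span given above) and chr15:8710808-8711057 (Slc1a3, minus strand).
Gja1: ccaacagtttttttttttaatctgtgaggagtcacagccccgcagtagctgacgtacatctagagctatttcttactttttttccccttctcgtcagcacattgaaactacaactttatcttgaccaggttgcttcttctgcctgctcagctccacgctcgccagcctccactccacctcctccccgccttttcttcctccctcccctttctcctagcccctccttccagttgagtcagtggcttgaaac
Gjb6: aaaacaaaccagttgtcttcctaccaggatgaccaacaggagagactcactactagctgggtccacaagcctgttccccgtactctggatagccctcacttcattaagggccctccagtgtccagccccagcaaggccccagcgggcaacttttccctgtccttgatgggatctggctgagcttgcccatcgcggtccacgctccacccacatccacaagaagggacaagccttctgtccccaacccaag
Slc1a2: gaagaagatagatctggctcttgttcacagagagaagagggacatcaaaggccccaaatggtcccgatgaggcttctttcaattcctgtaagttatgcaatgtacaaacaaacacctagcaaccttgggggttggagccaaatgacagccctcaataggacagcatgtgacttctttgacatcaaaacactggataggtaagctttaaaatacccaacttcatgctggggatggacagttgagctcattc
Slc1a3: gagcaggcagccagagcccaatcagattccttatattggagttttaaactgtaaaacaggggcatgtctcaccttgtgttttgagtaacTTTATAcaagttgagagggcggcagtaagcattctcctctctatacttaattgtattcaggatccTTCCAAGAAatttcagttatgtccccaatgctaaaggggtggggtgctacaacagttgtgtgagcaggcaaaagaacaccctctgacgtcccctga
The motifs, searched on both strands, were TTCNNNGAA for STAT factors and the palindrome of NFI factors. They also included the RBPJ motif GTGGGAA. The SOX motif was taken as ACAAAG. The TATA box was taken as TATAAA. Slc1a3 alone among the 8 genes held any match, with the STAT motif starting 96 bases and the TATA box 161 bases before the start. Of 32851 promoters of the same length, 7.02% held the STAT motif, 12.4% the TATA box, 5.42% the RBPJ motif, 16.5% the SOX motif and 0.0365% the NFI palindrome. The sequences used for the transporter pair held few CpG, with 1 at the Slc1a2 start inside the gene and 2 for Slc1a3. The connexin pair held 6 for Gja1 and 5 for Gjb6, and the median over all promoters was 6. Slc6a11 held 25, Glul 15, Slc7a10 14, and Slc4a4 had 2 listed starts with 44 and 3.

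The first comparison asked whether astrocyte-like cells that differ in Agt also differ in these genes. Raw UMIs were summed per class and library and tested with edgeR's quasi-likelihood test with the library as a block, over 10317 genes with Benjamini-Hochberg adjustment. Of all genes, 195 (1.89%) passed an adjusted p of 0.05, of which 64 (0.62%) were higher and 131 lower in Agt-positive cells. Of the 9 members, 1 passed. Slc6a11, which clears GABA, rose in Agt-positive cells from 257 and 304 to 356 and 379 CPM, a log2 fold change of 0.40 ± 0.10 (SE, 2 libraries, edgeR adjusted p = 0.0271). The gain was seen in both libraries, with within-library log2 ratios of 0.47 and 0.32. Its call did not hold with cells thinned to 2000 UMIs, where the log2 fold change was 0.32 (edgeR adjusted p = 0.342), with a minimum of 1000 genes per cell (0.34, edgeR adjusted p = 0.197), with stricter class rules (0.35, edgeR adjusted p = 0.0597), without the library block (0.39, edgeR adjusted p = 0.571) or by DESeq2 (0.40, adjusted p = 0.177).

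Another 4 members had log2 fold changes between 0.31 and 0.33 without passing. Gjb6 stood at 0.33 ± 0.11 (edgeR adjusted p = 0.0902), Slc7a10 at 0.33 ± 0.10 (edgeR adjusted p = 0.0916), Gja1 at 0.31 ± 0.10 (edgeR adjusted p = 0.0962) and Slc4a4 at 0.32 ± 0.11 (edgeR adjusted p = 0.142). All 4 were higher in Agt-positive cells in both libraries. Gja1, Gjb6 and Slc4a4 passed when Agt-positive meant at least 2 Agt UMIs, and those 3 and Slc7a10 passed when the fit held only the 2 classes compared. The remaining members had small values: Slc1a2 at 0.10, Slc1a3 at 0.06, Glul at 0.04 and Aqp4 at 0.02, with edgeR adjusted p from 0.758 to 0.970.

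**Figure D3:**
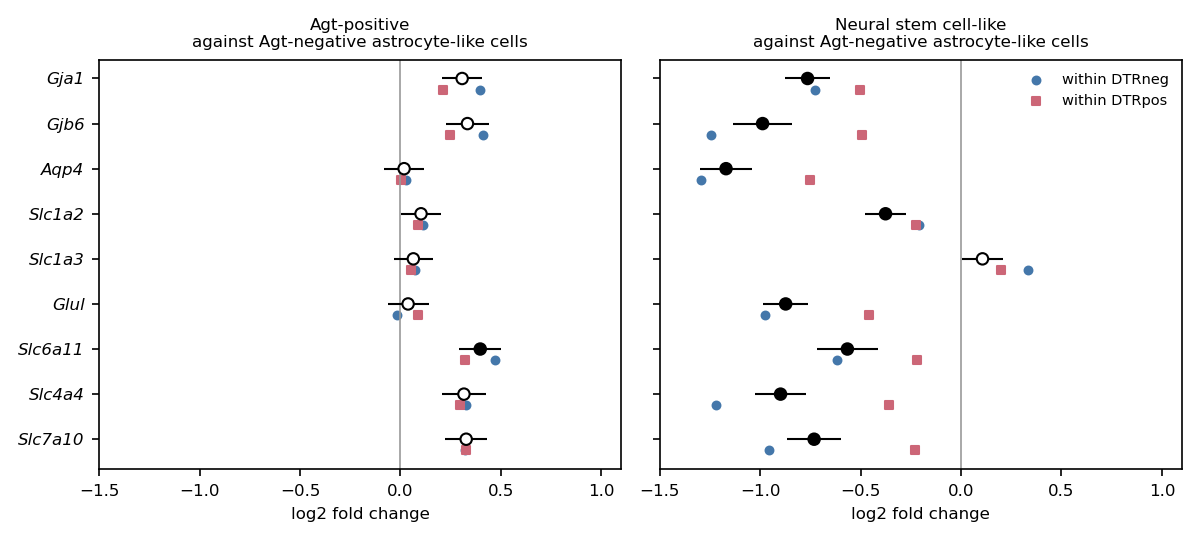
Log2 fold change from edgeR against Agt-negative astrocyte-like cells for Agt-positive (left) and neural stem cell-like cells (right). Bars are 1 SE, filled circles passed an adjusted p of 0.05, and coloured points are the ratios of CPM within each library. Slc6a11 is the filled point at the left, and 8 of 9 genes are filled and negative at the right, with Slc1a3 the open point above 0.

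Of 9 genes for water channel anchoring and volume control, 0 passed by edgeR (2 at an unadjusted p under 0.05, 0 by DESeq2), and 1 of 7 for potassium and sodium handling did. That gene was Kcnj16, a subunit of the inward rectifier potassium channel, at 55.8 and 72.8 CPM in Agt-negative and 105 and 112 in Agt-positive cells (log2 fold change 0.76 ± 0.14). Among 9 tested glutamate and glutamine genes, Slc7a11, the cystine-glutamate exchanger, rose (0.72 ± 0.11) and Slc38a1, a glutamine carrier, fell (-1.64 ± 0.28). Slc3a2, the heavy chain that partners Slc7a10 and Slc7a11, rose from 322 and 356 to 437 and 466 (0.42 ± 0.10), the 1 gene of 5 tested in the serine list. By edgeR, 0 of 5 GABA and glycine genes, 0 of 6 acid-base and lactate genes and 0 of 2 other connexin genes tested passed. At an unadjusted p under 0.05 these counts were 2, 0 and 0, and by DESeq2 all were 0. The potassium, glutamate, serine, stress and reactive lists also had 0 genes past the threshold by DESeq2. Of 10 dissociation stress genes 4 fell, among them Ier2 (-1.43 ± 0.22), as did Gfap (-0.59 ± 0.12) and Vim (-0.65 ± 0.15) of 4 reactive astrocyte genes tested. The summed stress list was at 1231 and 1280 CPM in Agt-positive and 1749 and 1340 in Agt-negative cells, and its part in the member values was not tested. Of 6 telencephalic astrocyte genes 1 rose, Mfge8 (0.47 ± 0.10), as did 2 of 3 non-telencephalic ones tested, Itih3 (0.65 ± 0.13) and Sparc (0.51 ± 0.10). Mitochondrial UMIs took a median of 2.74% and 2.72% in Agt-positive and 3.69% and 3.29% in Agt-negative cells.

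The second comparison set neural stem cell-like cells against Agt-negative astrocyte-like cells in the same fit. Of the 9 members, 8 fell and Slc1a3 did not pass, where 894 of the 10317 genes (8.67%) passed, 466 of them lower (4.52%). Aqp4 fell most, from 834 and 856 to 340 and 509 CPM, by 1.17 on the log2 scale (SE 0.13, edgeR adjusted p = 3.48e-10). In CPM, the libraries of the 2 classes overlapped for Slc1a2 and Slc6a11 and for no other member. How many of all genes overlapped was not counted. Gjb6 fell by 0.99 (SE 0.15, edgeR adjusted p = 9.44e-07) and Gja1 by 0.76 (SE 0.11, edgeR adjusted p = 7.22e-07).

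Among the carriers, Slc4a4 fell by 0.90 on the log2 scale (SE 0.13, edgeR adjusted p = 5.12e-07), Slc7a10 by 0.73 (SE 0.14, edgeR adjusted p = 7.86e-05) and Slc6a11 by 0.57 (SE 0.15, edgeR adjusted p = 0.0091). Glul fell by 0.87 (SE 0.11, edgeR adjusted p = 3.95e-08). The glutamate transporters moved least. Slc1a2 fell by 0.38 (SE 0.10, edgeR adjusted p = 0.0107), and Slc1a3 stood at 0.11 ± 0.10 (edgeR adjusted p = 0.642). The scaling in this fit (TMM) lowers every neural stem cell-like value by 0.18 in DTRneg and 0.14 in DTRpos relative to CPM, so that the plain ratio for Slc1a3 was 0.33 and 0.20. Slc1a2 lost its call with a minimum of 1000 genes per cell (edgeR adjusted p = 0.0543), with stricter class rules (edgeR adjusted p = 0.0860) and without the library block (edgeR adjusted p = 0.183). Slc6a11 lost it without the block (edgeR adjusted p = 0.104) and by DESeq2 (adjusted p = 0.103), and Slc4a4 by DESeq2 (adjusted p = 0.120).

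The gap between neural stem cell-like and Agt-negative cells differed in size between the libraries. For Slc4a4 the within-library log2 ratio was -1.22 in DTRneg and -0.36 in DTRpos, for Gjb6 -1.25 and -0.49, for Slc7a10 -0.96 and -0.23, and for Aqp4 -1.29 and -0.75. For Glul it was -0.98 and -0.46, and for Slc6a11 -0.62 and -0.22. In DTRpos alone the counting intervals of Slc6a11 (-0.57 to 0.11) and Slc7a10 (-0.48 to 0.01) included 0. For Slc1a2 it was -0.21 and -0.23. With 1 library per genotype this difference could not be tested.

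How the stem cell-like class is drawn sets the size of the gap. Riiad1 was read as a single UMI in 51 of the 80 DTRneg cells and 61 of the 84 DTRpos cells. An Agt UMI was present in 36 (45.0%) and 43 (51.2%) of them. With the class drawn instead by at least 2 of 7 stem cell markers (74 and 44 cells), all 8 members stayed past the threshold and the values were further from 0. The log2 fold change was then -2.53 for Aqp4, -2.92 for Gjb6, -2.49 for Slc4a4, -2.12 for Slc7a10 and -2.04 for Glul, and it was -1.92 for Gja1, -1.35 for Slc6a11 and -0.76 for Slc1a2. Hopx, a stem cell marker, was at 1155 and 759 CPM in Agt-negative cells and 2080 and 1430 in the Riiad1-drawn class.

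In the fixed lists, 4 of 7 potassium and sodium genes fell in neural stem cell-like cells. Among them were Kcnk1, a leak potassium channel (436 and 522 against 133 and 255 CPM), the sodium pump subunit Atp1b2 (-0.79 ± 0.12), and Fxyd1, a pump regulator (-0.42 ± 0.11). Of 6 acid-base and lactate genes 3 fell: the lactate dehydrogenases Ldhb (-0.95 ± 0.12) and Ldha (-0.85 ± 0.19) and Car2, a carbonic anhydrase (-0.86 ± 0.12). The glutamine carriers split, with Slc38a1 (2.14 ± 0.23) and Slc38a2 (1.39 ± 0.26) higher and Slc38a3 (-1.14 ± 0.22) lower, and Got1 was lower (-1.39 ± 0.43). Slc38a1 was at 37.0 and 22.4 CPM in Agt-negative and 205 and 87.9 in stem cell-like cells. Maob (GABA and glycine), Psat1 (serine) and Dmd (water channel anchoring) each fell as the 1 gene of its list to pass by edgeR, of 5, 5 and 9 tested, and by DESeq2 these lists had 0. Of the regional lists, 2 of 3 non-telencephalic genes rose, Sparc (1.07 ± 0.11) and Itih3 (0.62 ± 0.19), and 0 of 6 telencephalic genes passed by edgeR (3 at an unadjusted p under 0.05, 0 by DESeq2). Vim rose (0.99 ± 0.17) as the 1 of 4 reactive genes, and 0 of 2 other connexin genes passed by edgeR, at an unadjusted p under 0.05 or by DESeq2. Of 10 dissociation stress genes 9 rose, with the summed list at 5793 and 3642 against 1749 and 1340, and its part in the member values was not tested. The summed astrocyte marker list was at 11871 and 14120 against 15790 and 15936.

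The third comparison set DTRpos against DTRneg within each class, as ratios of CPM with exact 95% intervals for counting error only, and with no test. A gene was counted when its mean was at least 100 CPM and called when it was past 1.5-fold. In Agt-negative cells 0 of 9 members were past 1.5-fold, where 1.53% of 1438 genes were, and the members' median log2 ratio was 0.17 against 0.02 over all genes. In Agt-positive cells 0 of 9 were, where 1.33% of 1433 genes were, with medians of 0.01 and 0.05. Gja1 had the largest ratio among the members in Agt-negative cells, at 2602 UMIs in DTRneg and 3269 in DTRpos, a log2 ratio of 0.37 (0.29 to 0.44). In Agt-positive cells it was 0.18 (0.12 to 0.24).

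Slc1a2 gave nearly the same ratio in all 3 lineage classes, at 0.25 (0.21 to 0.28) in Agt-positive, 0.27 (0.23 to 0.31) in Agt-negative and 0.25 (0.16 to 0.34) in neural stem cell-like cells. It was 0.23 (0.13 to 0.33) in oligodendrocyte precursor-like cells and 0.29 (0.02 to 0.57) in neuroblast-like cells. In classes where Slc1a2 was under 100 CPM, and so not counted, the ratio varied more. It was 0.37 (0.26 to 0.47) in mature oligodendrocyte-like, 1.40 (0.68 to 2.14) in endothelial-like and -0.43 (-2.33 to 1.25) in pericyte-like cells. Slc4a4 was at 0.22 (0.15 to 0.29) in Agt-positive and 0.26 (0.17 to 0.34) in Agt-negative cells. Slc1a3 stayed near 0 in both, at -0.03 (-0.08 to 0.02) and -0.01 (-0.06 to 0.05), and was -0.16 (-0.31 to -0.01) in oligodendrocyte precursor-like cells. Gjb6 was at 0.01 (-0.11 to 0.12) in Agt-positive and 0.17 (0.03 to 0.31) in Agt-negative cells, and Slc6a11 at 0.09 (-0.06 to 0.24) and 0.24 (0.05 to 0.43). Aqp4 was at 0.01 (-0.09 to 0.11) and 0.04 (-0.07 to 0.15), and Slc7a10 at 0.01 in both, from -0.10 to 0.11 and from -0.12 to 0.14. Glul was the member lower in DTRpos in Agt-negative cells by more than counting error, at -0.16 (-0.23 to -0.10). It was -0.06 (-0.12 to 0.00) in Agt-positive cells and -0.07 (-0.09 to -0.05) in mature oligodendrocyte-like cells. Of all list genes, Psph, the last enzyme of serine synthesis, was past 1.5-fold in Agt-positive cells, at 179 CPM in DTRneg and 119 in DTRpos (-0.59, from -0.84 to -0.35), and none was in Agt-negative cells. TMM scaling between the libraries would move these ratios by 0.09 at most in any class.

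**Figure D4:**
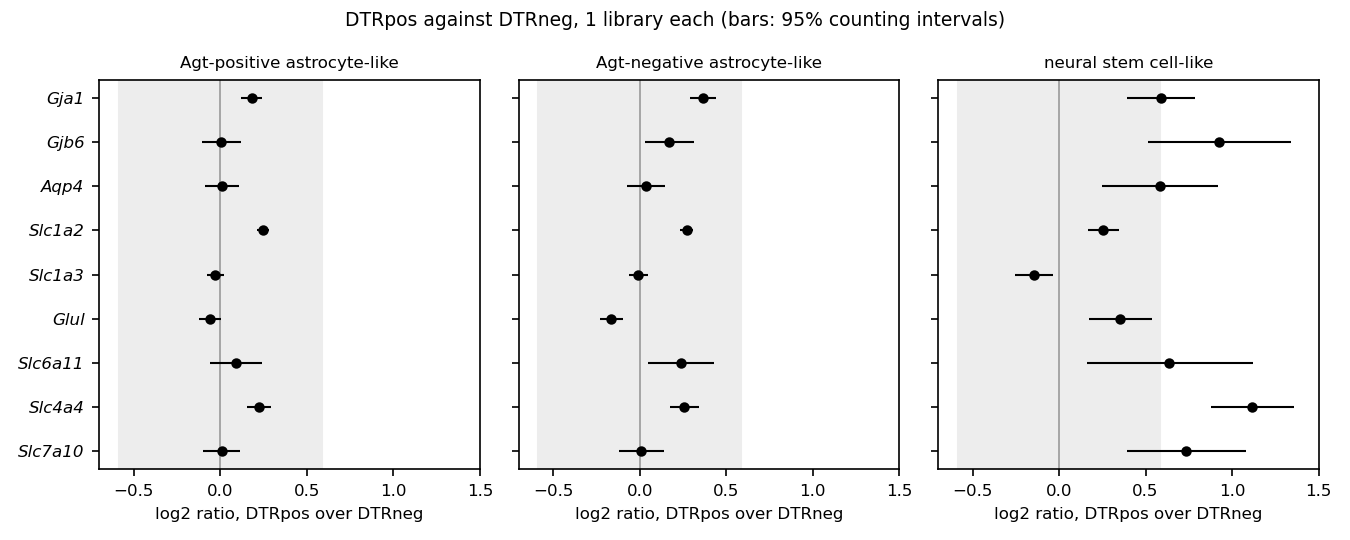
Log2 ratio of CPM, DTRpos over DTRneg, for the 9 genes in the 3 astrocyte-lineage classes. Each ratio compares 1 library with 1 library, bars are exact 95% counting intervals and the grey band marks less than 1.5-fold. All points lie inside the band in the 2 astrocyte-like classes, while 5 of 9 lie beyond it in neural stem cell-like cells.

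In neural stem cell-like cells 5 of 9 members were past 1.5-fold, all higher in DTRpos, where 12% of 1570 genes were past it and 6.37% were higher. Slc4a4 went from 224 UMIs (560 CPM) in DTRneg to 401 (1215 CPM) in DTRpos, a log2 ratio of 1.12 (0.88 to 1.36). Gjb6 was at 0.92 (0.52 to 1.34), Slc7a10 at 0.74 (0.39 to 1.08), Slc6a11 at 0.64 (0.16 to 1.12) and Gja1 at 0.59 (0.39 to 0.79). Aqp4 lay just inside the limit at 0.58 (0.25 to 0.92). Glul was at 0.35 (0.17 to 0.54), and Slc1a3 was the 1 member lower in DTRpos, at -0.14 (-0.25 to -0.03). The members' median was 0.59 against 0.03 over all genes.

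Other genes of these cells also differed between the libraries, in both directions. The summed astrocyte marker list was at 11871 CPM in DTRneg and 14120 in DTRpos with 8 of 8 markers detected in both, and the stem cell list, Riiad1 included, at 2858 and 2103. Hopx was lower in DTRpos at -0.54 (-0.71 to -0.38), and it was also lower in Agt-negative cells (-0.61) and Agt-positive cells (-0.40). Of 7 counted stress genes 4 were past 1.5-fold and lower in DTRpos, with Fos at -0.78. The summed endothelial list was at 5.0 and 66.7 CPM, with 2 and 6 of its 8 markers detected. Their part in the member ratios was not tested. Among the list genes, of which some are named here after their values were seen, Kcnk1 (0.94), Dag1 (0.69), Ldhb (0.68) and Slc3a2 (0.67) were past 1.5-fold and higher in DTRpos. Slc38a1 (-1.22), Lhx2 (-1.19), Psph (-0.92) and Kcnj10 (-0.67) were lower.

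The ratios in neural stem cell-like cells depended on how the class was drawn. With 2 of 7 stem cell markers, 1 of 8 counted members was past 1.5-fold, Slc7a10 at 0.91 (54 and 46 UMIs), and the median was 0.10 over these 8 and 0.17 over all 9. The share of all genes past it under this rule is not reported here. Slc4a4 was then at 0.24 (-0.22 to 0.70), Gja1 at 0.17 (-0.17 to 0.50), Glul at -0.35 (-0.68 to -0.02) and Aqp4 at -0.58 (-1.28 to 0.08). Gjb6, under 100 CPM and so not counted, was at 0.67 (-0.21 to 1.53). Without the cells that had an Agt UMI, an alternative chosen after seeing the data (44 and 41 cells), 5 of 9 were past 1.5-fold and Slc4a4 was at 1.30 (0.84 to 1.76). Of all genes, 334 were past 1.5-fold under this rule, against 189 of 1570 with all Riiad1-drawn cells. The share that 334 makes of the genes counted under this rule is not reported here. The 5 of 9 members therefore cannot be set against it. Without Agt-bearing cells Aqp4 was among the 5 members, at 0.68 (0.06 to 1.31), and Gja1 was not, at 0.57 (0.19 to 0.95). The interval lay above 0 for 4 members, against 8 with all Riiad1-drawn cells. It included 0 for Gjb6 (-0.03 to 1.43) and Slc6a11 (-0.08 to 1.46). How many of all genes had an interval above 0 is not reported here. Slc1a2 then stood at 0.08 (-0.06 to 0.22).

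**Figure D5:**
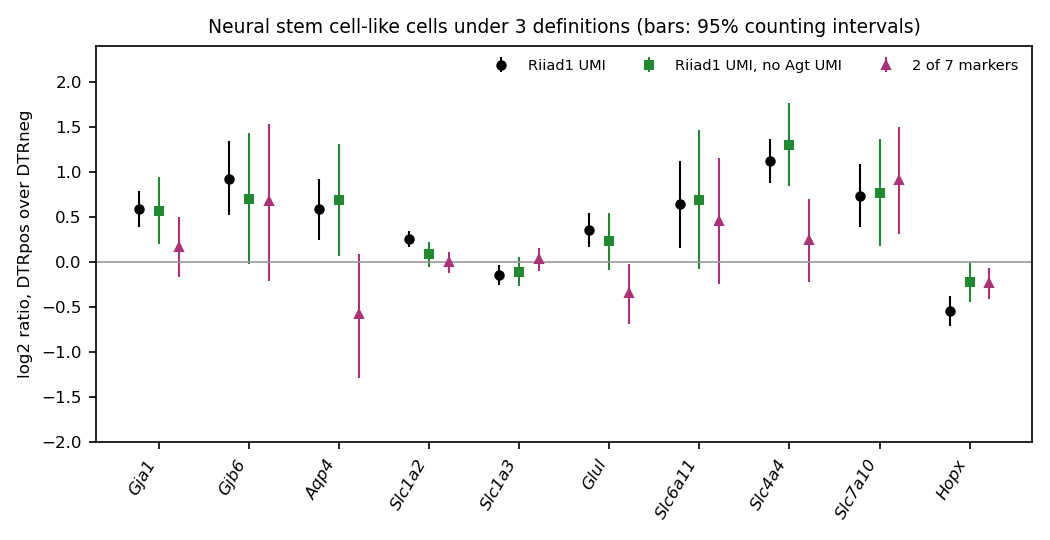
Log2 ratio of CPM, DTRpos over DTRneg, for the 9 genes and the stem cell marker Hopx in neural stem cell-like cells drawn in 3 ways, with exact 95% counting intervals and 1 library per genotype. Slc4a4 is above 0 by more than its interval when the class is drawn by Riiad1, with or without Agt UMIs, and its interval includes 0 when the class is drawn by 2 of 7 markers.

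Across 8 classes and 2 libraries (16 points), the genes most like each member were taken from 4116 genes by Pearson's r of log2(CPM + 10), as a description, since points of 1 library share its depth. Gjb6 and Aqp4 were closest to Aldh1l1, Hsd11b1 and Slc39a12, each with r of 0.997 or 0.998, and the 2 members to each other with r of 0.998. Gja1 was closest to Fam107a (0.996), Slc1a2 to Dbx2 (0.992), Slc1a3 to Rgs20 (0.977) and Slc7a10 to Cxcl14 (0.995). Hapln1 was closest to both Slc6a11 (0.997) and Slc4a4 (0.993), and those 2 had r of 0.997 with each other. Glul stood apart, with Prnp as its closest gene (0.914) and r from 0.52 to 0.81 with the other 8 members, whose own pairs ranged from 0.83 to 0.998.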

How the data were processed

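Droplet single-cell RNA libraries (10x Genomics) of sorted hippocampal cells were used. The authors deposited unnormalised UMI counts, 1 matrix for each library, written by Cell Ranger 6.1.0 per the file headers. The build is mm10, per the submitters' processing notes, and gene positions come from GENCODE mouse release 21. The annotation release of the files is not given in the sources used here. The members and gene lists were chosen with earlier results of these data known.

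Cells needed at least 500 genes and under 15% mitochondrial UMIs, and Scrublet (Scanpy 1.11.5) removed 242 and 158 doublets. A class needed at least 3 of its 8 markers with a UMI and 2 times the number of any other of the 12 classes. Cells with Riiad1 were neural stem cell-like, and the others were split at 1 Agt UMI. All members are named in each comparison of the 3 lineage classes. List genes are named where they passed edgeR or 1.5-fold, at most 4 a list, and some are not reported here. Counts were summed per class and library, and 6 sums (3 classes in 2 libraries) were tested with edgeR 4.0.16 (TMM, filterByExpr, R 4.3.3). The library pairs the sums of its cells. The 2 sums per class come from libraries of opposite genotype. The block takes out the shift between those 2 libraries. The p-values rest on a spread that draws on all genes tested, not only on how far the libraries disagree for 1 gene. A small p-value therefore does not show that the libraries gave differences of like size. For Slc4a4 in neural stem cell-like against Agt-negative cells, the within-library log2 ratios were -1.22 (DTRneg) and -0.36 (DTRpos), with an SE of 0.13. On simulated data for the Agt comparison (9938 genes), 90 of 100 genes changed 2-fold and 58 of 100 changed 1.5-fold were recovered, with 1 false call. The simulation gave all 6 sums 1 shared profile and changed only genes with many UMIs. It lacks the library and class differences of the data, so these rates may not hold there. The genotypes, with 1 library each, were compared as ratios with exact 95% intervals, and a count of 0 is given with the limit that 3 counts set. Intervals and limits cover counting error only.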

Additional observations from a re-analysis of the deposited data

Results flagged for a closer look

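Glul had opposite ratios in neural stem cell-like and Agt-negative astrocyte-like cells. DTRpos over DTRneg was 0.35 on the log2 scale in neural stem cell-like cells and -0.16 in Agt-negative cells, and both counting intervals leave out 0. The opposition turned with the class rule: with neural stem cell-like cells drawn by 2 of 7 markers the value there was -0.35 (-0.68 to -0.02), and without cells that had an Agt UMI it was 0.23 (-0.09 to 0.55). Each value compares 1 library with 1 library, and the difference between the classes was not tested.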

How the results depend on the processing

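The count of genes that differed between Agt-positive and Agt-negative cells, 195, was 85 with a minimum of 1000 genes per cell, 53 with thinned cells, 332 with Agt-positive at 2 UMIs, 12 with DESeq2 1.42.0 and 422 with only the 2 classes fitted. For neural stem cell-like against Agt-negative cells, 894 became 386 with thinned cells, 2060 with the class drawn by 2 of 7 markers and 308 with DESeq2. The library is the replicate block of the main fit, and without this block the counts were 5 and 433. Between genotypes, 22 genes past 1.5-fold in Agt-negative cells became 51 with thinned cells and 4 past 2-fold, and 19 in Agt-positive cells became 2 past 2-fold. In neural stem cell-like cells 189 became 321 with thinned cells, 334 without Agt-bearing cells and 41 past 2-fold, and the members' median of 0.59 was 0.1696 with the class drawn by 2 of 7 markers. Aqp4 in Agt-positive against Agt-negative cells changed sign, to -0.01791 with 1000 genes per cell, -0.01239 with stricter class rules and -0.01174 with Agt-positive at 2 UMIs, none past the threshold. The cause of these shifts was not tested. Leaving out 1 library leaves a value with no test. In direction, 18 of 18 member values in the stem cell comparison and 17 of 18 in the Agt comparison matched the fit on both. The exception was Glul without DTRpos (-0.01515). The fit was made on the same 2 libraries, so a like direction is partly built in. In size, 9 of 18 stem cell values lay more than 2 SE from the fit, where 18 of 18 Agt values lay within 2 SE. The share over all genes was not counted. Under the other alternatives 84 of 99 member values in the Agt comparison and 102 of 108 in the stem cell comparison kept their direction and call. Depth limits low values: 3 UMIs equal 7.50 and 9.09 CPM in neural stem cell-like cells.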
